A study of Mus musculus with 14 samples.

Results

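The genes of polyamine synthesis and of its antizyme control were followed in bulk RNA-seq counts of mouse aortic valve leaflets. They were the 10 genes Odc1, Oaz1, Oaz2, Azin1, Azin2, Amd1, Srm, Sms, Sat1 and Smox, of 56941 genes in the count table, and all 10 passed the filter on low counts that left 19145 genes for testing. The list was chosen by pathway with the levels and group differences of these same 14 libraries already known from an earlier pass, so the members' values are given as description and no p-value is attached to a member.

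All mice were wild type C57BL/6J males (C57BL/6 in the sample labels), given as 8 weeks old and fed Breslow Western Diet, a high-cholesterol feed. That age reads as the one at the start, since valves of infused mice were taken after the 28 days of infusion. Each library is taken as 1 mouse, since the sources used here mention no pooling. Ctrl mice (n = 4) were untreated. LY mice (n = 2) were given LY272015, which blocks the serotonin receptor HTR2B, at 3 mg/kg by intraperitoneal injection. AngII mice (n = 4) received angiotensin II, a vasoconstrictor peptide, at 1000 ng/kg/min for 28 days from an implanted pump, and AngII+LY mice (n = 4) received both. The treatment labels of 4 of the 6 dosed mice carry a compound number other than LY272015, and these mice were grouped by their sample names. The sources differ on whether injections were given every other day or 2 times a week, and on whether all or some infused mice lived 48 hours after removal of the pump. The study asked whether blocking HTR2B changes the early response of the valve to angiotensin II, and the questions here are how the polyamine genes stood after infusion and whether the antagonist went with other levels.

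Polyamines are small positively charged molecules that bind RNA and chromatin and that dividing and growing cells need. Ornithine decarboxylase (Odc1) makes putrescine from ornithine, and spermidine synthase (Srm) and spermine synthase (Sms) then add aminopropyl groups that come from S-adenosylmethionine by way of its decarboxylase (Amd1). Antizymes (Oaz1, Oaz2) bind ornithine decarboxylase and send it to the proteasome, and antizyme inhibitors (Azin1, Azin2), which resemble the decarboxylase but have little of its activity, bind antizyme in its place. Spermidine/spermine acetyltransferase (Sat1) and spermine oxidase (Smox) run the pathway backwards.

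Library totals ranged from 20990655 counts in AngII mouse 4 to 73128220 in AngII mouse 2. AngII mice 3 and 4 stood apart, with 24.7% and 25.5% of their counts on mitochondrial genes and the lowest TMM scaling factors (0.830 and 0.793). The mitochondrial share spanned 4.00% to 7.52% (Ctrl), 8.62% to 9.76% (LY), 9.83% to 25.5% (AngII) and 10.1% to 20.2% (AngII+LY), so Ctrl did not overlap any other group. Valve interstitial markers, among them Col1a1, Dcn, Lum and Vcan, were detected in every library, with 8 of 8 listed markers present. Their share was 0.472% to 0.880% in AngII+LY mice and 0.890% to 1.86% in the other mice. All 10 cardiomyocyte markers were present as well, with shares of 0.823% to 2.90% (Ctrl), 1.58% to 1.86% (LY), 0.767% to 1.56% (AngII) and 1.92% to 3.92% (AngII+LY), so cardiomyocyte shares did not overlap between AngII and AngII+LY. Erythroid markers (5 of 5 present) took 0.963% to 4.28% of the counts, endothelial (6 of 6) 0.0893% to 0.288%, macrophage (7 of 7) 0.0431% to 0.201% and smooth muscle markers (5 of 5) 0.0298% to 0.887%. Adipocyte markers (6 of 6) took 0.0415% to 0.0723% in AngII mice and 0.0725% to 0.124% in the other mice. Most of this share was Fabp4, with a mean of 40063 counts scaled to library size, against 1815 for Ucp1, the next highest. Ucp1, Plin1 and Cidec lay below Ctrl in both infused groups. On that scale their lowest Ctrl values were 2417, 340 and 1094. AngII mice reached 1037, 309 and 817 at most, and AngII+LY mice 787, 218 and 846. Adipoq, Cfd and Fabp4 overlapped Ctrl in both groups. T cell markers (4 listed, of which Cd3d and Cd3g were at 0 in 1 library each) stayed at or below 0.000976% of the counts. In bulk tissue, fewer cells of a type and less RNA per cell cannot be told apart, and the part of these shares in the results was not tested.

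Levels are given as normalized counts, which are counts scaled to a common library size. To compare genes, normalized counts were divided by the length of the canonical transcript in kb. On this per-kb scale Oaz1 was the most abundant member in Ctrl valves, at 37624 ± 5145 (SD, n = 4), followed by Sat1 at 10902 ± 3530 and Oaz2 at 5786 ± 633. Srm (2287 ± 321) and Odc1 (2029 ± 378) came next and overlapped each other. Smox (1050.4 ± 124), Azin1 (796 ± 101), Amd1 (568 ± 71.2), Azin2 (415 ± 108) and Sms (253 ± 56.0) completed the order, in which only Amd1 and Azin2 overlapped their neighbour. Antizyme message thus stood far above the message of the enzyme it controls. The order changed in the AngII mice, where Azin1 (2712 ± 1450, per kb) stood next to Odc1 (2796 ± 1867) with overlapping ranges and above Srm (1314 ± 569), and Azin2 (266 ± 110) was last.

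**Figure D1:**
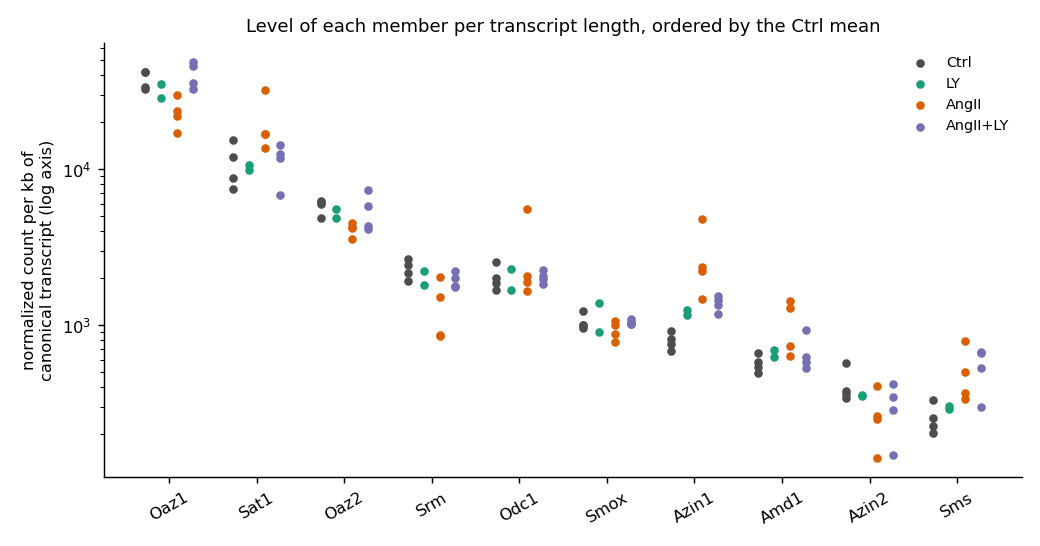
Normalized count per kb of canonical transcript (log axis) for the 10 members in each mouse, ordered by the Ctrl mean and coloured by group. Oaz1 lies at the top with a Ctrl mean of 37624 and Sms at the bottom with 253, and the Azin1 points of the AngII mice reach the level of Odc1.

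Odc1 (ENSMUSG00000011179, GRCm39 chr12:17594383-17601507, plus strand), which encodes the rate-limiting decarboxylase, had normalized counts of 5911, 4665, 4322 and 3872 in Ctrl mice and of 5311 and 3860.2 in LY mice. In AngII mice they were 4375, 4752, 3823 and 12921, and in AngII+LY mice 4274, 4585, 5238 and 4805. A single mouse, AngII 4, was high, and the other 13 mice lay between 3823 and 5911. The fitted log2 fold change of AngII against Ctrl was 0.45 (SE 0.32), and it was -0.12 without AngII mouse 4 and 0.90 (SE 0.38) when libraries were corrected for the GC content of the genes. AngII+LY against AngII stood at -0.44 (SE 0.32) with that mouse and at 0.13 without it. For AngII+LY against Ctrl the fit gave 0.01 (SE 0.32), and for LY against Ctrl -0.03 (SE 0.39).

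Antizymes are made only when the ribosome slips forward by 1 base at the end of a short first reading frame, a step that polyamines promote. The 2 sites below are shown because they are the sensor by which this pathway reads its own product, and RNA counts do not see how often the slip occurs. Each is read from the GRCm39 genome on the plus strand, within a coding exon. Capitals mark the last codon before the stop followed by the stop codon TGA, whose first base the annotated coding sequence skips.
Oaz1, chr10:80664114-80664143, skipped base 80664129: cctcggtggtgcTCCTGAtgtccctcaccc
Oaz2, chr9:65593539-65593568, skipped base 65593554: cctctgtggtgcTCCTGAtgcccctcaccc

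Oaz1 (ENSMUSG00000035242, chr10:80662516-80665124, plus strand) had normalized counts of 35240.0, 44105, 43716 and 34058 in Ctrl mice and of 36919 and 29892 in LY mice. Its counts were 31409, 22846, 24468 and 17745 in AngII mice and 37199, 33940.2, 50422 and 48079 in AngII+LY mice. Every AngII mouse lay below every Ctrl mouse and below every AngII+LY mouse. The mean was 39279.6 ± 5371 in Ctrl, 24117 ± 5642 in AngII and 42410.0 ± 8067 in AngII+LY mice (SD, n = 4 each), a log2 fold change of -0.70 (SE 0.21) for AngII against Ctrl and of 0.81 (SE 0.21) for AngII+LY against AngII. AngII+LY and Ctrl overlapped, with a log2 fold change of 0.11 (SE 0.21), and LY against Ctrl was -0.23 (SE 0.26). With the GC correction AngII against Ctrl shrank to -0.06 (SE 0.18) with overlapping groups, and AngII+LY against AngII to 0.48 (SE 0.18), also with overlap. AngII+LY against Ctrl rose to 0.42 (SE 0.18) with the GC correction, again with overlap, and LY against Ctrl was -0.10 (SE 0.23).

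Oaz2 (ENSMUSG00000040652, chr9:65575283-65597582, plus strand), the less abundant antizyme gene, stood at 11143, 11656, 11465 and 9089 normalized counts in Ctrl and at 8488, 6631, 8004 and 7812 in AngII mice. All 4 AngII mice lay below all Ctrl mice, with a log2 fold change of -0.49 (SE 0.19). AngII+LY mice spread from 7776 to 13744 and LY mice from 9097 to 10413, so both overlapped Ctrl. The log2 fold change of AngII+LY against AngII was 0.39 (SE 0.19), and it was 0.20 without AngII+LY mouse 4. The GC correction brought AngII against Ctrl to -0.13 (SE 0.18). Oaz3, an antizyme gene known from testis, had a mean of 2.79 counts and was not tested.

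Azin1 (ENSMUSG00000037458, chr15:38487539-38519785, minus strand), the main antizyme inhibitor, showed the widest difference of the 10 genes. Normalized counts were 4330.3, 3989.6, 3612 and 4873 in Ctrl mice, 6085 and 6574 in LY mice, 7733, 11792, 12371 and 25369 in AngII mice, and 8135, 7598, 7095 and 6229.6 in AngII+LY mice. All 10 treated mice lay above all 4 Ctrl mice, and AngII and AngII+LY mice overlapped only through AngII mouse 1 and AngII+LY mouse 1. Group means were 4201 ± 535 in Ctrl, 6329.8 ± 346 in LY (n = 2), 14316 ± 7652 in AngII and 7265 ± 810.3 in AngII+LY mice. The fit placed AngII 3.40-fold above Ctrl (log2 fold change 1.76, SE 0.28) and AngII+LY 1.73-fold above Ctrl (0.79, SE 0.27). For LY against Ctrl the log2 fold change was 0.59 (SE 0.33), and for AngII+LY against AngII it was -0.98 (SE 0.27).

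The size of the Azin1 difference depended on AngII mouse 4, while its direction did not. AngII against Ctrl was 1.34 without AngII mouse 4 and 1.22 without AngII mice 3 and 4, and AngII+LY against AngII was -0.55 and -0.43. With the GC correction the values were 1.48 (SE 0.25) and -0.54 (SE 0.25), and Ctrl still did not overlap LY, AngII or AngII+LY mice. Without that correction, the smallest adjusted p over all genes in AngII against Ctrl was 0.0439 by edgeR's quasi-likelihood test. Every call there thus lay near the threshold of 0.05. Azin1 was the one member called in AngII against Ctrl. The call was lost with the GC correction, with edgeR's legacy fit, with no filter on low counts, with only the 2 groups compared and with the replicate number as a block (log2 fold changes 1.48, 1.77, 1.73, 1.76 and 1.69). It was also lost without Ctrl mouse 1, 2 or 3 (log2 fold changes 1.78, 1.74 and 1.70) and without AngII mouse 3 or 4 (1.83 and 1.34).

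Azin2 (ENSMUSG00000028789, chr4:128822025-128856568, minus strand), known mostly from brain and testis, was the less abundant inhibitor gene. Its normalized counts ranged from 719 to 1208 in Ctrl, from 738 to 755 in LY, from 298 to 861 in AngII and from 310.3 to 887 in AngII+LY mice. These ranges overlapped in every comparison, and the log2 fold changes were -0.60 (SE 0.33) for AngII against Ctrl and 0.12 (SE 0.34) for AngII+LY against AngII. Without AngII mouse 4, the lowest of all 14, the first was -0.43 and the second -0.05. With the GC correction they were -0.21 (SE 0.33) and 0.02 (SE 0.34).

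**Figure D2:**
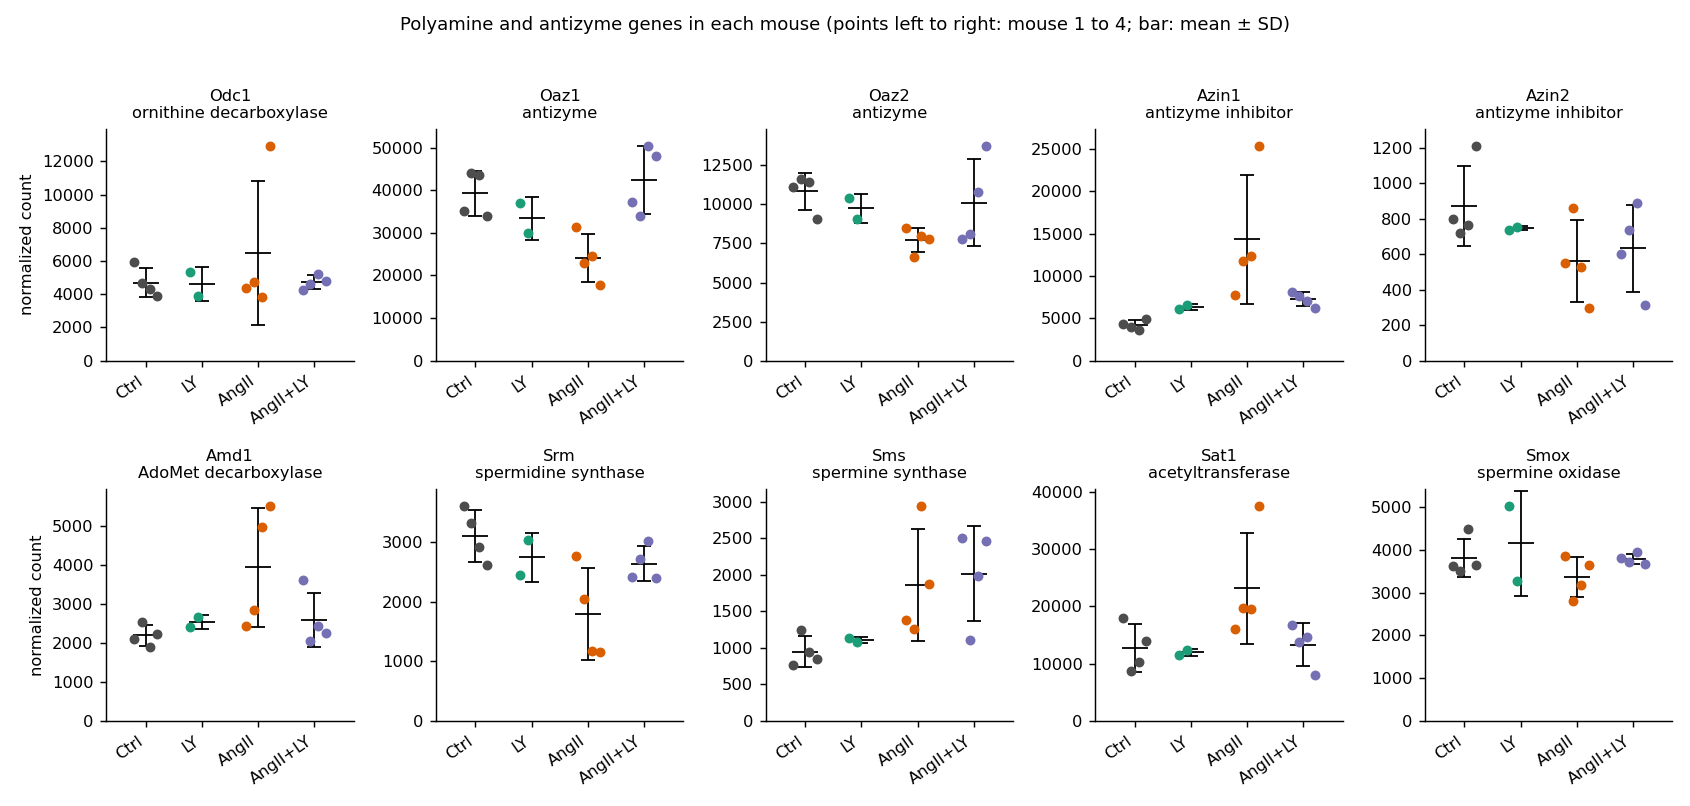
Normalized count of each member in every mouse, with the points of a group drawn from mouse 1 at the left to mouse 4 at the right and the bar giving the mean ± SD, on axes that start at 0. The Azin1 points of all treated mice lie above those of Ctrl, the Oaz1 points of the AngII mice lie below those of Ctrl and AngII+LY, and AngII mouse 4 stands alone for Odc1 at 12921.

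Among the enzymes that lengthen the chain, the 2 synthases pointed in opposite directions after infusion. Amd1 (ENSMUSG00000075232, chr10:40162797-40178185, minus strand), which supplies the aminopropyl donor, had normalized counts of 2092, 2548, 1896 and 2239.7 in Ctrl and of 2438, 2835, 4983 and 5509 in AngII mice. AngII mice 3 and 4 were high, while AngII mouse 1 lay within the Ctrl range. The log2 fold change was 0.84 (SE 0.26), and without those 2 mice it was 0.27. AngII+LY mice had 3617, 2057, 2422 and 2252, for a log2 fold change of -0.60 (SE 0.26) against AngII that went to -0.03 without AngII mice 3 and 4. With the GC correction AngII against Ctrl was 0.57 (SE 0.23) and AngII+LY against AngII -0.20 (SE 0.23). The 2 LY mice had 2414 and 2661.

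Srm (ENSMUSG00000006442, chr4:148675940-148681792, plus strand), which makes spermidine, stood at 3597, 3308, 2912 and 2606 in Ctrl, 2452 and 3033 in LY, 2759, 2048, 1176 and 1151 in AngII, and 2412, 2713, 3009 and 2395 in AngII+LY mice. AngII mice 3 and 4 held the lowest values of all 14 mice. The log2 fold change was -0.79 (SE 0.25) for AngII against Ctrl, -0.37 without AngII mice 3 and 4, and -0.29 (SE 0.19) with the GC correction. AngII+LY against AngII was 0.55 (SE 0.25), and 0.13 without those mice.

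Sms (ENSMUSG00000071708, chrX:156226848-156275317, minus strand), which makes spermine, was higher in both infused groups. Normalized counts were 758, 1238, 944 and 843 in Ctrl, 1137 and 1078 in LY, 1377, 1251, 2937 and 1873 in AngII, and 2499, 1110.3, 1985 and 2465 in AngII+LY mice. All 4 AngII mice and 3 of the 4 AngII+LY mice lay above the Ctrl range. The log2 fold change against Ctrl was 0.97 (SE 0.30) in AngII and 1.09 (SE 0.30) in AngII+LY mice. AngII+LY against AngII stood at 0.12 (SE 0.30), with overlapping groups. Without AngII mice 3 and 4, Sms stood at 0.47 for AngII against Ctrl and at 0.62 for AngII+LY against AngII, and with the GC correction at 0.60 (SE 0.29) and 0.58 (SE 0.29).

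Reads of Sms could be shared with its processed copy Sms-ps, which is 100% identical over 1101 aligned bases and held a mean of 445 normalized counts against 1535 for Sms. In each mouse Sms-ps stood at 21.7% to 38.5% of the Sms count. Adding its counts to Sms gave log2 fold changes of 0.96 for AngII against Ctrl, 0.10 for AngII+LY against AngII and 1.06 for AngII+LY against Ctrl. Of the 36 sequence copies found for the 10 members, only Sms-ps and 2 genes that share sequence with Odc1, Banp and AW146154, exceeded 5% of the member's count in any mouse. Banp stood at 2.79% to 34.5% and AW146154 at 2.64% to 29.0% of the Odc1 count. Their counts were not added to Odc1, so the effect of shared reads on Odc1 was not tested.

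On the catabolic side, Sat1 (ENSMUSG00000025283, chrX:153996128-153999452, minus strand) had normalized counts of 17994, 8717, 10322 and 13945 in Ctrl and of 11466 and 12439 in LY mice. In AngII mice they were 16073, 19649, 19587 and 37542, and in AngII+LY mice 16740.2, 13699, 14721 and 7974. Of the AngII mice, only mouse 1 fell inside the Ctrl range, and AngII mouse 4 was far above the rest. The log2 fold change of AngII against Ctrl was 0.86 (SE 0.30), and 0.53 without AngII mouse 4. AngII+LY against AngII was -0.80 (SE 0.30), and -0.47 without it. The GC correction gave 0.68 (SE 0.29) for AngII against Ctrl and -0.42 (SE 0.29) for AngII+LY against AngII.

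Smox (ENSMUSG00000027333, chr2:131333416-131368431, plus strand), which turns spermine back into spermidine, was the steadiest member. Its normalized counts ranged from 3498 to 4487 in Ctrl, from 3283 to 5027 in LY, from 2814 to 3856 in AngII and from 3683 to 3958 in AngII+LY mice. The log2 fold changes were -0.18 (SE 0.17) for AngII against Ctrl and 0.17 (SE 0.17) for AngII+LY against AngII. With the GC correction the first turned to 0.43 (SE 0.22) and the second to -0.13 (SE 0.22).

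Counted over the members, AngII mice had higher levels than Ctrl for 5 and lower levels for 5. Their median log2 fold change was 0.14, against -0.05 over all 19145 genes. A gene was called where edgeR's quasi-likelihood test gave an adjusted p (Benjamini-Hochberg, all genes) under 0.05 and the log2 fold change exceeded 0.5 in either direction. In AngII against Ctrl 1 member was called, beside 2.90% of all genes. An unadjusted p under 0.05 was reached by 7 members (4 higher, 3 lower), beside 27.6% of all genes, and 4 members had groups that did not overlap (Azin1 and Sms higher, Oaz1 and Oaz2 lower), beside 15.0%. The members were chosen with these differences known, so the counts describe them and support nothing further.

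The members' median in AngII+LY against AngII was 0.12, against -0.02 over all genes, and 0 members were called, beside 0.919% of all genes. The unadjusted threshold was passed by 5 members (2 higher, 3 lower) beside 24.8%, and only Oaz1 had groups without overlap, beside 11.1%. DESeq2's Wald test with the same cut-off called 6 members in AngII against Ctrl (Sat1, Sms, Srm, Amd1, Oaz1 and Azin1) and 2 in AngII+LY against AngII (Oaz1 and Azin1), where it called 13.9% and 10.9% of all genes. These comparisons share the AngII mice, so opposite signs in them are not independent of each other.

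In AngII+LY against Ctrl the median was 0.03, against -0.02 over all genes. There edgeR's quasi-likelihood test called 0 members and 0% of all genes, with 2 members at an unadjusted p under 0.05 (Azin1 and Sms, both higher) beside 13.8%, and DESeq2 called Sms alone, beside 1.79% of all genes. Groups did not overlap for Azin1, beside 8.16% of all genes. In LY against Ctrl, with 2 LY mice, the median was -0.06, against -0.03 over all genes. There 0 members and 0% of all genes were called, 0 members against 2.53% of all genes passed the unadjusted threshold, DESeq2 called 0 members and 21 genes, and Azin1 alone had groups without overlap, beside 12.0%.

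The design also allows the antagonist's difference to be compared with and without infusion. The log2 difference of AngII+LY against AngII minus that of LY against Ctrl was -1.57 (SE 0.42) for Azin1, 1.05 (SE 0.34) for Oaz1, -0.81 (SE 0.40) for Amd1, 0.73 (SE 0.40) for Srm, -0.71 (SE 0.47) for Sat1 and 0.54 (SE 0.30) for Oaz2. With the GC correction these values were, in the same order, -1.07, 0.59, -0.35, 0.42, -0.29 and 0.33. For Odc1, Azin2, Sms and Smox the difference lay between -0.41 and 0.35, each within 1 SE of 0. It lay between -0.69 and 0.44 with the GC correction. The edgeR test of this interaction called 0 members and 0% of all genes, with 2 members at an unadjusted p under 0.05 beside 15.4% of all genes, and DESeq2 called 0 members and 203 genes.

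**Figure D3:**
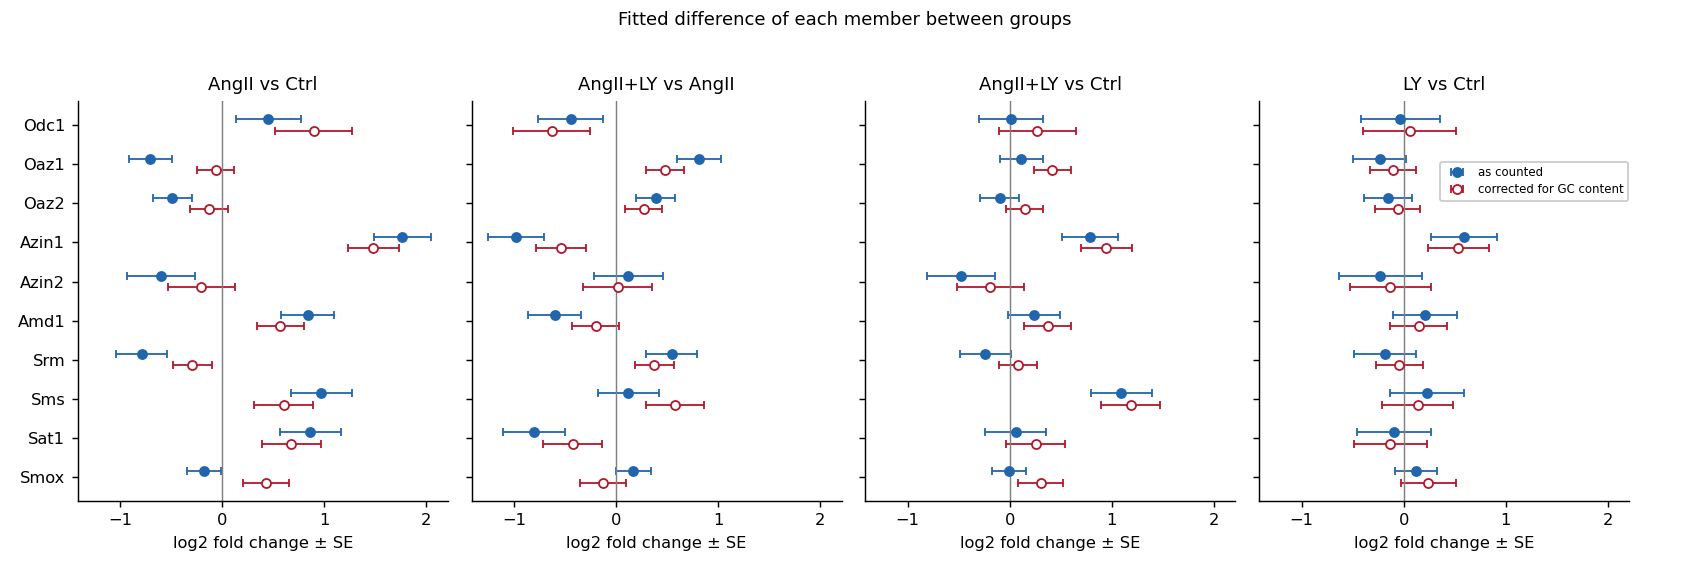
Fitted log2 fold change of each member with its SE in the 4 comparisons, from the counts as they stand (filled) and after correction of each library for GC content (open). In AngII against Ctrl, Azin1 stays high in both (1.76 and 1.48), while Oaz1 moves from -0.70 to -0.06 and Smox from -0.18 to 0.43.

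Base composition of the genes moved with these differences. Over all tested genes with a GC content, the 5309 genes under 45% GC had a median log2 fold change of 0.58 in AngII against Ctrl, and the 8055 genes at 50% or above had one of -0.42. The members fall into the same bands: Sms (42.3% GC), Azin1 (43.1%), Amd1 (43.3%) and Sat1 (43.9%) were all higher in AngII mice, and of the 6 members at 50% or above (Odc1, Oaz2, Azin2, Srm, Smox and Oaz1, from 50.2% to 55.7%) only Odc1 was higher. The same bands in AngII+LY against AngII had medians of -0.49 and 0.28, and 3 of the 4 members with low GC content were lower and 5 of the 6 others higher. Once GC content was corrected for by a loess curve in each library, Azin1 was the only member whose AngII and Ctrl mice did not overlap, and in AngII+LY against AngII no member had groups apart, Azin1 and Oaz1 included.

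**Figure D4:**
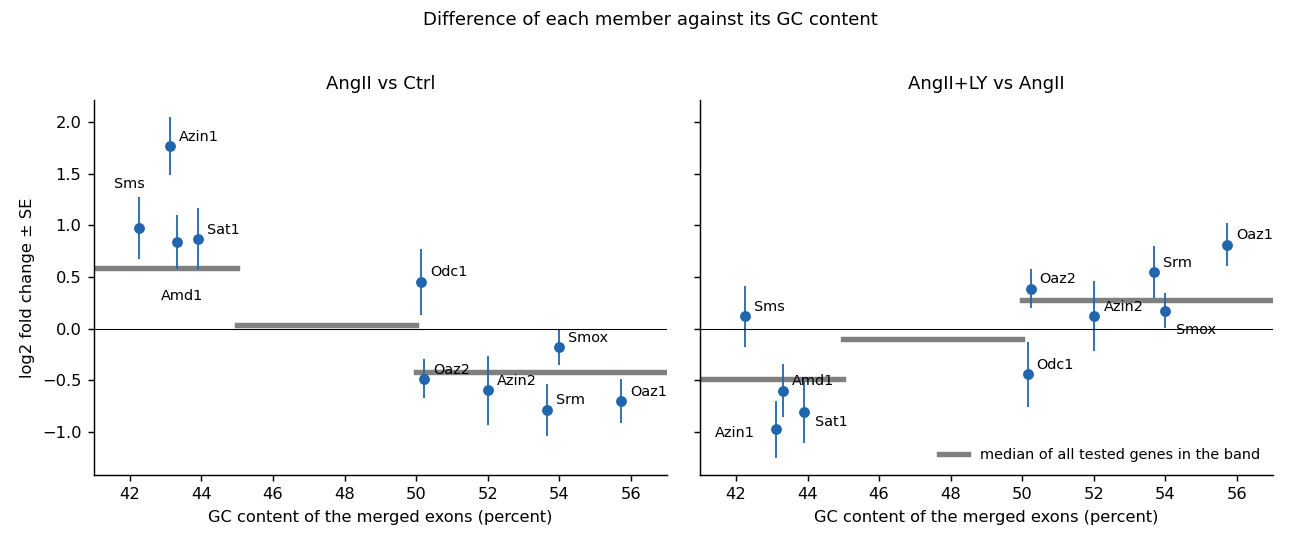
Log2 fold change of each member with its SE against the GC content of its merged exons, with grey bars at the median of all tested genes under 45%, from 45% to 50% and at 50% or above. The 4 members near 43% GC lie above 0 in AngII against Ctrl, above the band median of 0.58, and 3 of them lie below 0 in AngII+LY against AngII.

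Ratios of 2 members in the same library do not depend on how libraries are scaled. Oaz1 had 8.14, 11.1, 12.1 and 6.99 counts for each Azin1 count in Ctrl mice and 6.07 and 4.55 in LY mice. In AngII mice the ratio was 4.06, 1.94, 1.98 and 0.699, and in AngII+LY mice 4.57, 4.47, 7.11 and 7.72. AngII mice lay below every mouse of the other groups, and in AngII mouse 4 Azin1 counts exceeded Oaz1 counts. These counts are not divided by transcript length (1.044 kb for Oaz1, 5.278 kb for Azin1). Per kb, AngII mouse 4 had 16997 for Oaz1 and 4807 for Azin1. With the GC correction the lowest count ratio in AngII mice was 1.68. The mean log2 ratio was 2.36 lower in AngII than in Ctrl mice (-2.36), and with the GC correction 1.45 lower (-1.45), still without overlap. AngII+LY exceeded AngII by 1.67, and by 0.92 with overlap after the correction. LY mice also lay below Ctrl without overlap, at -0.83, and at -0.64 after the correction, again without overlap. AngII+LY against Ctrl was -0.69 with overlap, and -0.53 without overlap after the correction.

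For each Odc1 count Oaz1 held between 5.96 and 10.1 counts in Ctrl mice and 6.95 and 7.74 in LY mice. AngII mice held 7.18, 4.81, 6.40 and 1.37, and AngII+LY mice between 7.40 and 10.01. AngII lay below AngII+LY in every mouse but overlapped Ctrl, and after the GC correction all groups overlapped. Azin1 to Odc1 spanned 0.733 to 1.26 (Ctrl), 1.15 to 1.70 (LY), 1.77 to 3.24 (AngII) and 1.30 to 1.90 (AngII+LY). Both infused groups were above Ctrl without overlap, and after the GC correction only AngII+LY remained so, since AngII mouse 4, with its high Odc1, then fell into the Ctrl range.

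Srm to Sms was lower than in Ctrl in both infused groups. The ratio was 4.74, 2.67, 3.08 and 3.09 in Ctrl, 2.16 and 2.81 in LY, 2.004, 1.64, 0.401 and 0.615 in AngII, and 0.965, 2.44, 1.52 and 0.972 in AngII+LY mice. Srm counts, not divided by transcript length (1.358 kb, and 3.732 kb for Sms), outnumbered Sms counts in every Ctrl and LY mouse. They did so in 2 of 4 AngII and 2 of 4 AngII+LY mice. Per kb, Srm lay above Sms in every group, with 848 to 2032 against 335 to 787 in AngII mice. In AngII+LY mice the per-kb ranges were 1764 to 2216 for Srm and 298 to 670 for Sms. In the count ratio neither infused group overlapped Ctrl, and both did after the GC correction. Sat1 to Odc1 ranged from 1.87 to 3.60 in Ctrl and from 2.91 to 5.12 in AngII mice and overlapped in every comparison.

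**Figure D5:**
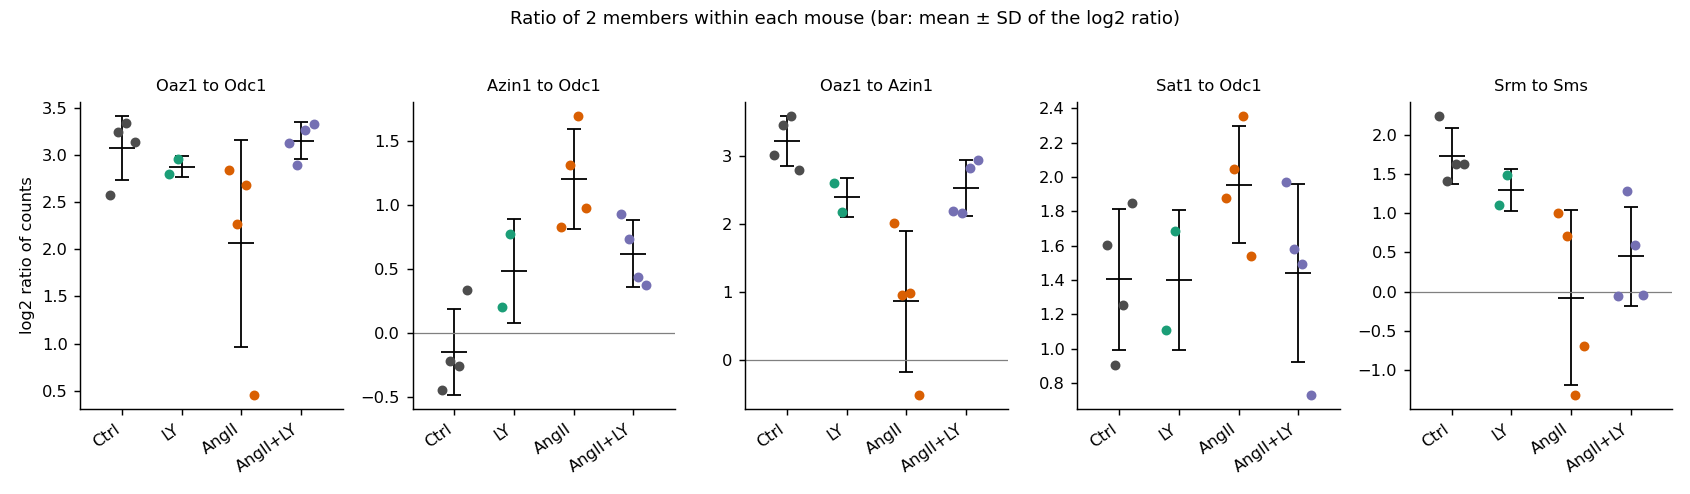
Log2 ratio of the counts of 2 members within each mouse, with bars at the mean ± SD of each group and the points of a group drawn from mouse 1 to mouse 4. Oaz1 to Azin1 is lowest in the 4 AngII mice, and Srm to Sms is lower in both infused groups than in Ctrl.

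The wider pathway was read from 46 further genes in 7 groups, of which 39 passed the filter. These lists too were chosen with earlier results of these data known. Genes named below were picked partly by the smallest p in the same comparisons. Their p-values are therefore description and not independent tests. In AngII against Ctrl 1 of the 39 was called by edgeR (2.90% of all genes) and 7 by DESeq2 (13.9%), 12 (6 higher, 6 lower) had an unadjusted p under 0.05, which is 30.8% of them beside 27.6% of all genes, and their median log2 fold change was -0.09. For AngII+LY against AngII 0 were called by edgeR (0.919% of all genes) and 3 by DESeq2 (10.9% of all genes), and 9 (3 higher, 6 lower), or 23.1% beside 24.8%, had an unadjusted p under 0.05. In AngII+LY against Ctrl edgeR and DESeq2 called 0, beside 0% and 1.79% of all genes. There 4, or 10.3% beside 13.8%, had an unadjusted p under 0.05. In LY against Ctrl all these counts (edgeR, DESeq2 and unadjusted) were 0, beside 0%, 0.11% and 2.53% of all genes.

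The called gene was Atp13a3, which encodes an ATPase that moves polyamines out of endosomes into the cytosol. Its normalized counts were 1465, 1992, 1499 and 1994 in Ctrl mice, 979 and 1708 in LY mice, 2564, 6127, 10368 and 26663 in AngII mice, and 3382, 16329, 6518 and 1458 in AngII+LY mice. All 4 AngII mice and 3 of 4 AngII+LY mice lay above every Ctrl mouse. AngII against Ctrl had a log2 fold change of 2.71 (SE 0.69) and an adjusted p of 0.049995 by edgeR's quasi-likelihood test over all genes, directly at the threshold, and 0.00604 by DESeq2. AngII+LY against AngII was -0.72 (SE 0.65, adjusted p = 0.524). The call was lost without AngII mouse 4 (log2 fold change 1.87, adjusted p = 0.157), without AngII mouse 3 (2.75, 0.107), without Ctrl mouse 1, 2, 3 or 4 (2.63 to 2.78, 0.0567 to 0.137) and with the GC correction (2.16, 0.138), and its own GC content is 40.4%. Of the 7 transport genes tested, 3 (1 higher, 2 lower) had an unadjusted p under 0.05 in AngII against Ctrl, or 42.9% beside 27.6% of all genes. Slc18b1, a vesicular polyamine transporter, spanned 840.0 to 1764 in AngII mice but 624 to 1034 in AngII+LY mice (log2 fold change -0.72, SE 0.25, adjusted p = 0.105). With the GC correction that log2 fold change was -0.46.

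In ornithine and arginine supply 0 of 8 tested genes were called by edgeR and 3 by DESeq2 in AngII against Ctrl, beside 2.90% and 13.9% of all genes. Oat, the ornithine aminotransferase that competes with Odc1 for ornithine, ranged from 7757 to 13819 in Ctrl and from 5182 to 6522 in AngII mice without overlap (log2 fold change -0.76, SE 0.22, adjusted p = 0.0652). With the GC correction Oat stood at -0.83. Slc7a2, a cationic amino acid transporter, ranged from 956 to 2038 in Ctrl mice, with 1917 to 4024 in AngII mice, then 556 to 1655 in AngII+LY mice. Its log2 fold change was 0.95 (SE 0.33, adjusted p = 0.0975) for AngII against Ctrl and -1.20 (SE 0.34, adjusted p = 0.0681) for AngII+LY against AngII, where the groups did not overlap. With the GC correction Slc7a2 stood at 0.92 and -0.93.

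Hypusination is the use of spermidine to modify the translation factor eIF5A. Of its 4 genes edgeR called 0 in any comparison, while DESeq2 called Dohh in AngII+LY against AngII, beside 10.9% of all genes. Eif5a itself ranged from 27355 to 33429 in Ctrl mice, with 17560.0 to 26717 in AngII mice but 27282 to 37352 in AngII+LY mice, so AngII lay below both. The log2 fold changes were -0.45 (SE 0.18, adjusted p = 0.1201) and 0.48 (SE 0.18, adjusted p = 0.119), and with the GC correction 0.25 and 0.07 (GC content 59.1%). Dohh, the hydroxylase of the second step, had 331 to 803 in AngII mice against 881 to 1451 in AngII+LY mice (0.86, SE 0.25, adjusted p = 0.0701). With the GC correction Dohh stood at 0.51 (GC content 59.6%).

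In methionine and methylthioadenosine recycling edgeR called 0 of 7 tested genes, and DESeq2 called Mat2a in AngII against Ctrl, beside 13.9% of all genes. Mat2a, which makes S-adenosylmethionine, ranged from 13827 to 20529 in Ctrl and from 20795 to 28350.2 in AngII mice without overlap (0.53, SE 0.19, adjusted p = 0.106). Mtap, which salvages the by-product of both synthases, differed by -0.41 (SE 0.18, adjusted p = 0.173) between AngII+LY and AngII. With the GC correction these differences were 0.55 for Mat2a and -0.22 for Mtap. In the MYC network, whose founding member drives Odc1 in other tissues, edgeR called 0 of 10. DESeq2 called Mga in AngII against Ctrl, beside 13.9% of all genes. Mxi1, its most abundant gene, was 11502 in AngII mouse 4 and 4199 to 4381 in the other AngII mice. Mga ranged from 1400.4 to 2446 in Ctrl and from 2578 to 2989 in AngII mice (0.65, SE 0.20, adjusted p = 0.0725). With the GC correction the Mga difference was 0.29, at a GC content of 42.0%. Mycl ranged from 10.3 to 120 in AngII and from 0 to 38.4 in AngII+LY mice (-2.58, SE 0.95, adjusted p = 0.115). With the GC correction Mycl stood at -2.82. Catabolic relatives stayed low, with Paox from 195 to 617 and Sat2 from 238 to 851 over all mice, and Amd2, which is 99.6% identical to Amd1 over 3202 bases and may share its reads, had a mean of 83.8 normalized counts. None of the 2 tested catabolic genes and Amd2 was called by either tool, and the smallest adjusted p among them in AngII against Ctrl and AngII+LY against AngII was 0.250 (Paox, AngII against Ctrl, log2 fold change -0.54, SE 0.30).

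Over the 14 mice, the tested genes whose log2 normalized counts were most like those of Odc1 were Alox5ap (r = 0.94), Derl1 (0.93) and H2bc6 (0.93). Each had its highest value in AngII mouse 4, as Odc1 did. For Azin1 they were Gm30455 (r = 0.98), Kcnq1ot1 (0.97) and Ppp1r2 (0.97), which also peaked in that mouse. These values describe shared profiles over 14 libraries that differ in depth and base composition, and AngII mouse 4 held the highest or the lowest value of the 14 for 7 of the 10 members (highest for Azin1, Odc1, Sat1 and Amd1, lowest for Azin2, Oaz1 and Srm).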

How the data were processed

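Aortic valve leaflets of 14 mice were profiled by bulk RNA-seq. Per the labels and the study's methods, the authors checked reads with FastQC 0.12.1, trimmed them, aligned them to GRCm39 with HISAT2, counted them per gene with featureCounts and tested them with DESeq2. The other versions, the gene annotation, strand setting and mate handling are not given in the sources used here. The deposited table is named as normalized but holds whole-number counts of 56941 genes, with unequal totals per library (20990655 to 73128220), and was treated as raw counts. Totals of this size leave counting error small beside the spread between mice for the members.

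Groups came from sample names. The 19145 genes whose mean count reached 10 were scaled by TMM and fitted with edgeR 4.0.16 in R 4.3.3, by the quasi-likelihood test over all 14 libraries (common dispersion 0.3534), with Benjamini-Hochberg adjustment over all genes. A call needed an adjusted p under 0.05 and a log2 fold change beyond 0.5 in either direction. SE is the fold change over the square root of F. P-values measure only the spread between these libraries. Symbols, lengths, GC content and positions came from GENCODE vM39. The GC correction took a loess curve (span 0.3) of log counts on GC content from each library, over the 19043 tested genes with a GC content. Copies were genes at least 90% identical to a member over 300 or more bases. Frameshift sites were read from the genome where the annotated coding sequence skips a base. Alternatives were DESeq2 1.42.0, other scaling, filters, fits and sets of libraries. The scripts were tested on simulated data. The 10 members and all gene lists were chosen with earlier results of these data known. The other pathway genes were named by rule, taking in each role the gene of highest mean and those with the smallest p in AngII against Ctrl and in AngII+LY against AngII. The genes most like Odc1 and Azin1 were the 3 of highest Pearson correlation.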

Additional observations from a re-analysis of the deposited data

Results flagged for a closer look

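Of 87 sets of 4 mice examined, 5 held a value far from the other 3, where chance alone gives about 1 in 20. Odc1 in AngII mouse 4 was 12921, against 3823 to 4752 in the other AngII mice. In the same mouse Sat1 was 37542, against 16073 to 19649, and Mxi1 was 11502, against 4199 to 4381. Azin2 in Ctrl mouse 4 was 1208, against 719 to 797, and Smox in Ctrl mouse 3 was 4487, against 3498 to 3656. All are normalized counts.

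For 8 genes, on the scale of log2(normalized count + 1), every LY mouse lay on one side of the Ctrl mean and every AngII+LY mouse on the opposite side of the AngII mean. No share over all genes is given beside this count, so it is description only. The log2 difference of the antagonist with infusion minus that without was -1.57 for Azin1, 1.05 for Oaz1, 0.54 for Oaz2, -0.81 for Amd1, 0.73 for Srm, 0.66 for Eif5a, -0.66 for Mga and 0.64 for Oat. With the GC correction these were, in the same order, -1.07, 0.59, 0.33, -0.35, 0.42, 0.12, -0.13 and 0.92. The members among them were chosen with these values known, so no p-value is given for them. The edgeR test of this interaction called none of these 8 genes and none of the 19145 genes tested (2952 at an unadjusted p under 0.05, and 203 called by DESeq2). LY had 2 mice.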

How the results depend on the processing

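Against 1 member called in AngII against Ctrl, DESeq2 called 6, and 0 were called with no filter on low counts, with edgeR's legacy quasi-likelihood fit, with only the 2 groups compared, with the GC correction, or without both AngII mice 3 and 4 (an alternative chosen after seeing the data). Leaving out 1 mouse gave 0 to 5, with 5 without AngII mouse 1. In AngII+LY against AngII the count of 0 became 2 with DESeq2 and 0 to 3 when 1 mouse was left out, and in AngII+LY against Ctrl 1 with DESeq2 and 0 to 0. For the other pathway genes, 1 called in AngII against Ctrl became 7 with DESeq2, 0 with each of the settings that gave 0 members and with Sms-ps added to Sms (also chosen after seeing the data), and 0 to 3 when 1 mouse was left out. In AngII+LY against AngII their count of 0 became 3 with DESeq2 and 0 to 1. The cause was not tested. Over all genes, 555 calls in AngII against Ctrl became 2663 with DESeq2, 741 with RLE size factors, 797 with halved counts and 0 with the legacy fit, and 176 in AngII+LY against AngII became 2082, 295, 445 and 0. Both became 0 with the GC correction, only the 2 groups compared or the replicate block. Leaving out 1 mouse gave 0 to 2135 (0 without Ctrl mouse 1, 2 or 3 or AngII mouse 3 or 4, 2135 without AngII mouse 1) and 0 to 1057 (0 without AngII mouse 2 or 3 or AngII+LY mouse 3 or 4, 1057 without AngII mouse 1). In AngII+LY against Ctrl, 0 became 343 with DESeq2 and 13 with no filter. Of 40 member estimates, the GC correction moved 10 by more than 1 SD and left 34 with their sign, and no called result changed sign. Replicate numbers showed no pairing of the mice once each group's mean was subtracted from the log2 normalized counts. These deviations correlated at -0.128 to 0.0897 between same-numbered mice of 2 groups and at -0.105 to 0.196 between differently numbered mice. The best partner shared the number for 1 of 4, 2 of 4, 1 of 4 and 0 of 2 mice. The deviations of the 2 LY mice mirror each other, so the last count is a single comparison. With the replicate block 0 members and 0 other pathway genes were called in AngII against Ctrl, and 0 and 0 with the block and the GC correction.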
